A study of Mus musculus with 6 samples.

Results

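The Rab genes encode small GTPases of vesicle traffic, and 57 of them were found among the 35237 gene rows of the table of FPKM (fragments per kilobase of transcript, scaled to the mapped fragments of the library, so a level per length). They were taken by name alone, as every symbol made of Rab, a number and at most a letter and a digit. A second table of the same libraries, made with the ALEXA-Seq method, held 58 such genes among 36536 rows, the additional one being Rab4a. RNA-Seq had been performed on C57BL/6 mice at 6 weeks of age, with no transgene or treatment named for either group, to find transcripts that set bone marrow monocytes apart from resident microglia. The bone marrow-derived monocytes (BMDM) had been sorted as CD11b+ CD45high CD115+ Ly6G- cells, and the brainstem microglia (BSM) as CD11b+ CD45low CD115low Ly6G- cells, from pooled mice. There were 3 libraries in each group. In both groups replicate 1 is listed as male and replicates 2 and 3 as female, while the study's text describes the pooled mice as male.

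Rab proteins switch between a GDP-bound and a GTP-bound state, and in the latter they sit on a membrane and recruit effectors such as tethers and motors. Exchange factors load them with GTP, GTPase-activating proteins switch them off, and escort proteins deliver newly prenylated Rabs to membranes. Each member marks particular steps: Rab1 and Rab2 the early secretory pathway, Rab5 the early endosome, Rab7 the late endosome and lysosome, Rab11 the recycling endosome, and Rab3 and Rab27 regulated secretion. In phagocytes such as monocytes and microglia the same set of proteins drives the maturation of phagosomes.

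The promoter sequences of Rab7 and Rab6b are shown because these were the called members with the largest log2 fold change in each direction on the log2(FPKM + 1) scale, and that of Rab6 (Rab6a in RefSeq) because it is the closest relative of Rab6b and differed in the opposite direction. Each run is the 250 bases before the RefSeq start, 5′ to 3′ on the gene's strand, in build GRCm38.p6. The FPKM table uses mm9, so these positions are not those of its gene models. Capitals mark GGGCGG, the core of the Sp-family GC box, on either strand.
Rab7, chr6:88045018-88045267, minus strand, the first of its listed starts: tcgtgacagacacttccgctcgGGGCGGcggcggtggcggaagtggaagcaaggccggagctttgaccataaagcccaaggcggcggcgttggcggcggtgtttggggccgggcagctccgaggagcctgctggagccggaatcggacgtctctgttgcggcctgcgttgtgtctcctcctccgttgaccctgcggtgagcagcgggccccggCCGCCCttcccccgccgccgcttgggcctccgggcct
Rab6 (Rab6a), chr7:100607336-100607585, plus strand: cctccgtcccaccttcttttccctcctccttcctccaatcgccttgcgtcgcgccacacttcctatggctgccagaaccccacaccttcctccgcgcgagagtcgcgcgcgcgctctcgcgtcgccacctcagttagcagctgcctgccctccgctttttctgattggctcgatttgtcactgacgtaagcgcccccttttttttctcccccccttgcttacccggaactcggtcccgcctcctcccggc
Rab6b, chr9:103111824-103112073, plus strand: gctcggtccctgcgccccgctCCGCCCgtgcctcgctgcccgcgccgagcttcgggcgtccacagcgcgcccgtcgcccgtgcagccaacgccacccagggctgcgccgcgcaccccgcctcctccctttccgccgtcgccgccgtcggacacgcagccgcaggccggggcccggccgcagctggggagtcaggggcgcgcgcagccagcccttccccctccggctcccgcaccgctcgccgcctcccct
GGGCGG was found at 2 places in the Rab7 window, at 1 in the Rab6b window and at none in the Rab6 window. The window of the second listed Rab7 start, chr6:88045271-88045520 and not shown, had none, with 10 CG dinucleotides and 59.2% G or C. On the minus strand this second start lies upstream of the first. The Rab7 window shown is therefore downstream of the second start. GGGCGG was found in 32.7% of all 32851 listed promoters, and in 40 of the 60 windows listed for 48 of the Rab genes. The Rab6b window held 40 CG dinucleotides and was 80.8% G or C, against 29 CG dinucleotides for Rab7 and 24 for Rab6 and medians of 15 over the Rab windows and 6 over all listed promoters. The letters CACGTG, the core of an E-box, and GAGGAAGT, a form of the PU.1 site, were in none of these 3 windows on either strand, and in 6.02% and 2.44% of all listed promoters. In these windows no match of 1 motif overlapped that of another.

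Features of the whole series bear on every value. FPKM summed to 163199 to 194184 in the BMDM libraries and to 68288 to 75021 in the BSM libraries, a ratio of 2.50, and the median gene was 0.81 higher in BMDM on the log2(FPKM + 1) scale. With upper quartile scaling this shift came to 0.14, with quantile normalization to 0.02, and with FPKM sums made equal to -0.23, so a direction is given below together with any scaling that turned it. The tables hold no read counts, so the counting error behind each value is unknown. BSM replicate 1 stood apart, with 472 of the 6364 tested genes listed at 0 against 51 to 115 in the other libraries. The study also lists the lowest RNA integrity of all libraries for it, far below the range of the others, and the lowest RNA concentration. For BMDM replicate 2 the study lists the fewest sorted cells and the lowest share of mapped reads. The part of RNA quality, input and mapping in these results was not tested. Of the 5 monocyte markers, Ccr2, Ly6c2 and F13a1 were higher in every BMDM library, Ccr2 being at 136 to 166 FPKM in BMDM and 0.0129 to 0.408 in BSM. The other members of that list are shared with microglia: Csf1r was at 19.1 to 21.3 FPKM in BMDM and 102 to 158 in BSM, and Itgam, which encodes the CD11b used to sort both groups, at 109 to 132 in BMDM and at 176, 0 and 100 in BSM. P2ry12, a microglia marker, was at 0.0311 to 0.287 in BMDM and 130 to 209 in BSM. The 6 granulocyte markers summed to 45.6 to 324 FPKM in BMDM and 0 to 0.0714 in BSM, although Ly6G- cells had been sorted. They were highest in BMDM replicate 2, where Mpo was at 181 FPKM against 32.7 and 67.1 in the other BMDM libraries, while Ly6g itself was at 0 to 0.293. In sorted pools a smaller share of cells expressing a gene cannot be told apart from less of its RNA per cell. The labels call the libraries biological replicates, and p-values measure the spread between these pools.

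Summed over the family, Rab FPKM was 530 ± 22.3 in BMDM and 277 ± 34.8 in BSM (SD, n = 3), and 296 in BSM without replicate 1. The 3 BMDM libraries gave 511, 555 and 525 and the 3 BSM libraries 238, 305 and 288, with no overlap. As a share of all FPKM the order was the other way, at 0.300% ± 0.0139 in BMDM and 0.391% ± 0.0410 in BSM, since the total of all genes differed more than that of the Rab genes. Among the tested genes without the mitochondrial rRNA genes the shares were 0.411% ± 0.0249 and 0.449% ± 0.0574 and overlapped, BSM replicate 1 being at 0.383% within the BMDM range of 0.383% to 0.430%. There were 28 to 31 Rab genes at an FPKM of at least 1 in the BMDM libraries and 22 to 24 in the BSM libraries.

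A level of 3 FPKM or more in any library was reached by 23 of the 57 Rab genes, and these were tested with limma among all 6364 genes that reached it. At an adjusted p under 0.05, 17 were higher in BMDM (73.9% of the 23, against 45.3% of all tested genes) and 2 were higher in BSM (8.70% against 9.22%). This filter can be passed through the higher group alone, so the counts describe the members that passed it and not the family. Their median log2 fold change, positive for higher in BMDM, was 1.16, and 15 of the 23 lay above the median of all tested genes. Under quantile normalization, 6 were called higher in BMDM (26.1% against 21.7% of all tested genes) and 4 higher in BSM (17.4% against 19.3%), which is near the background in both directions. Every BMDM library lay above every BSM library for 18 of the 23 (55.2% of all tested genes), the reverse held for 3 (11.6%), and 2 overlapped. Without BSM replicate 1, 17 were called higher in BMDM and 3 higher in BSM, Rab14 being added, against 50.2% and 11.6% of all tested genes. Without BMDM replicate 1, 2 or 3, the counts higher in BMDM were 12, 11 and 11, and the shares of all tested genes fell as well, to 39.5%, 36.3% and 32.0%. Without BSM replicate 2 or 3 they were 12 and 13, against 41.4% and 40.2%, and without replicate 3 Rab6b alone was higher in BSM, against 8.01%.

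**Figure D1:**
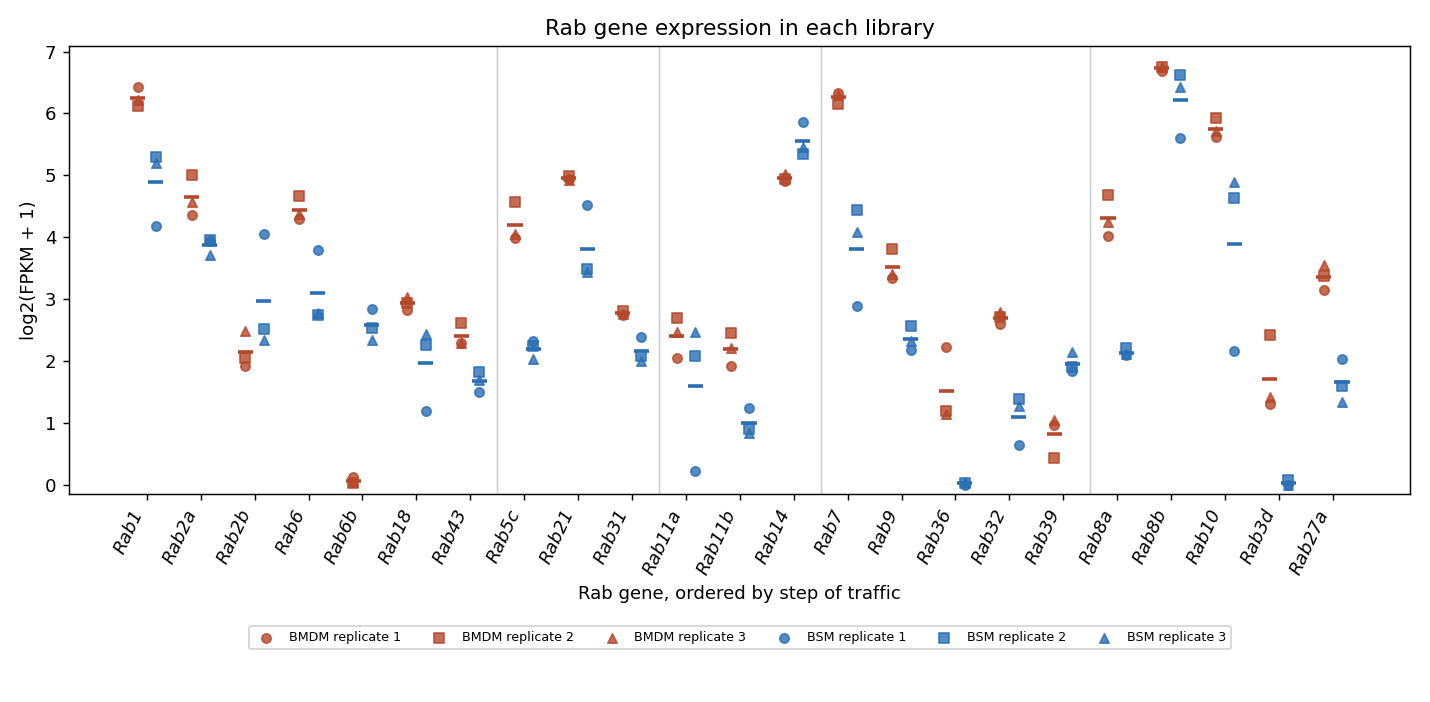
Expression of the 23 tested Rab genes, as log2(FPKM + 1), in each of the 3 BMDM (red) and 3 BSM (blue) libraries. Horizontal ticks are group means, vertical lines separate ER to Golgi, early endosome, recycling, late endosome and exocytic members, and the circles of BSM replicate 1 lie apart from the other BSM symbols for Rab2b, Rab11a and Rab10.

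**Figure D2:**
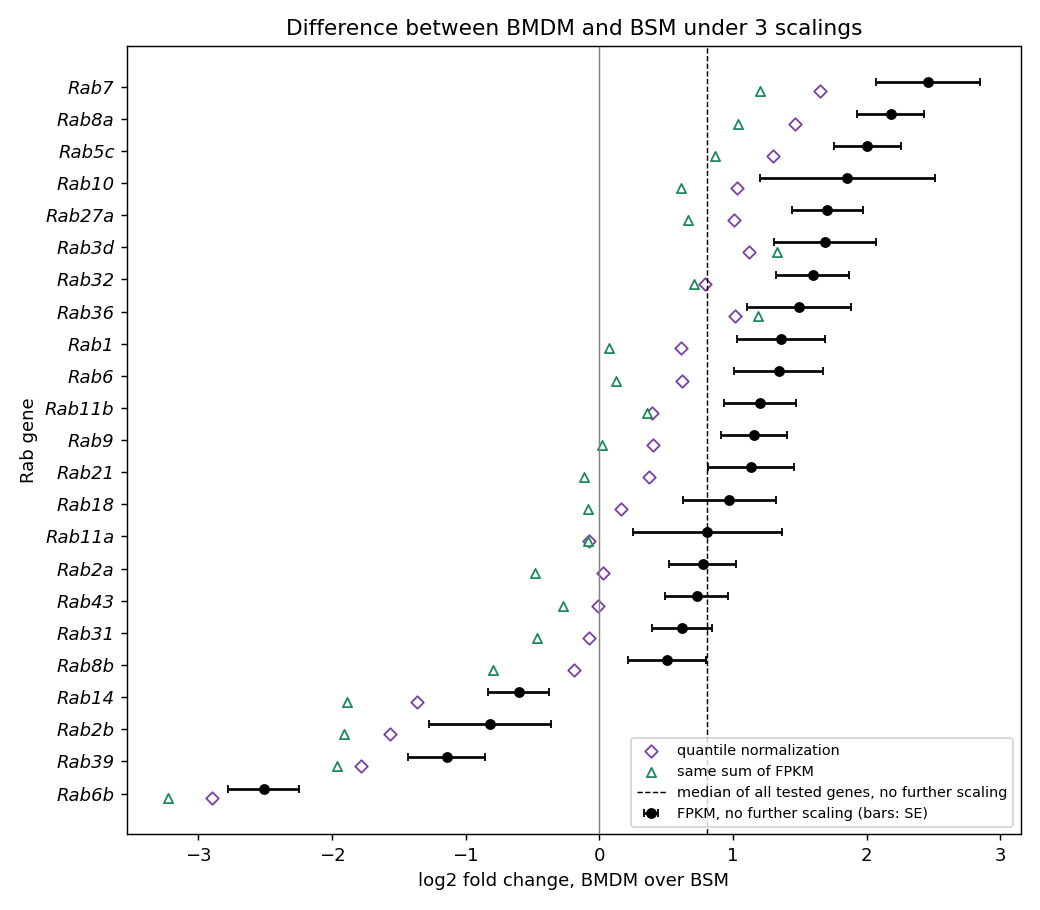
Log2 fold change, BMDM over BSM, of the 23 tested Rab genes without further scaling (black, bars are the standard error), after quantile normalization (diamonds) and with FPKM sums made equal (triangles). The dashed line is the median of all tested genes, 0.81. In all 3, 12 members lie above 0, Rab7, Rab8a and Rab5c among them, and Rab6b, Rab39, Rab2b and Rab14 lie below 0.

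Of the Rabs of the ER and Golgi, 7 of 12 were tested. Of these, 5 were called higher in BMDM (against 45.3% of all tested genes) and Rab6b higher in BSM (against 9.22%). So few genes were tested per step that these counts do not describe a step of traffic. Rab6b, a Golgi Rab known as the neuron-enriched relative of Rab6, lies at chr9:103014281-103087598 in mm9. It was at 0.0881, 0.0218 and 0.0291 FPKM in the BMDM libraries and at 6.18, 4.82 and 4.09 in the BSM libraries. The groups were far apart, the mean in BSM being 108-fold that in BMDM and 96.1-fold without replicate 1. Its log2 fold change was -2.51 (SE 0.27, limma adjusted p = 0.000217), and it was called higher in BSM under all 4 scalings. The 3 measured neuron markers summed to at most 0.249 FPKM in any library, with Stmn2 at 0. Rab6, which acts within the Golgi and from Golgi to ER, went the other way. It was at 18.7, 24.3 and 19.7 FPKM in BMDM and at 12.95, 5.68 and 5.83 in BSM, where replicate 1 was the highest. Its log2 fold change was 1.34 (SE 0.33, limma adjusted p = 0.0110), and it remained positive but was not called under the other 3 scalings. Of the longest Rab6 transcript 39.4% is shared with 2 other annotated genes, 22.1% with Mrpl48, whose exons overlap it on the other strand. Whether the counting used strand is not given in the sources used here, and Mrpl48 was at 1.82 to 2.90 FPKM in BMDM and 1.55 to 2.15 in BSM.

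Rab1, the GTPase of transport from ER to Golgi, was among the 3 most highly expressed Rab genes in BMDM. It was at 85.3, 68.3 and 73.1 FPKM in BMDM and at 17.2, 38.3 and 35.8 in BSM, with replicate 1 the lowest of them. Rab1 had a log2 fold change of 1.36 (SE 0.33, limma adjusted p = 0.00981), which was positive but not called under the other 3 scalings. Its close relative Rab1b stayed under the minimum, at 0.534 to 1.29 FPKM in BMDM and 0.0666 to 0.169 in BSM. Rab2a, which acts at the Golgi and on lysosome-directed vesicles, was at 24.5 ± 6.11 FPKM in BMDM and 13.7 ± 1.32 in BSM. Rab2a was called at 0.77 (SE 0.25, limma adjusted p = 0.0318), but turned to -0.04 after upper quartile scaling and -0.48 after scaling to the same sum. Rab18, found on lipid droplets and the ER, was at 6.68 ± 0.571 and 3.17 ± 1.65, and Rab43, of the ER and Golgi, at 4.30 ± 0.695 and 2.20 ± 0.354. Their log2 fold changes of 0.97 (limma adjusted p = 0.0455) and 0.73 (limma adjusted p = 0.0318) turned to -0.09 and -0.27 after scaling to the same sum, and that of Rab43 to -0.01 after quantile normalization. Of the longest transcripts of Rab43 and Rab2a, 90.5% and 29.8% are shared with other annotated genes, so that their reads may have been split. None of these 3 calls passed without BMDM replicate 2, BMDM replicate 3 or BSM replicate 2, at values of 0.59 to 0.82 for Rab2a, 0.92 to 1.12 for Rab18 and 0.62 to 0.80 for Rab43. The calls of Rab18 and Rab43 also did not pass without BMDM replicate 1, at 1.03 and 0.78, nor those of Rab2a and Rab43 without BSM replicate 3, at 0.70 and 0.74.

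Rab2b, the relative of Rab2a, was the only tested ER and Golgi member not called. It was at 2.77, 3.13 and 4.62 FPKM in BMDM and at 15.6, 4.74 and 4.06 in BSM, so that the groups overlapped and replicate 1 of BSM alone was far above the rest. The log2 fold change was -0.82 (SE 0.46, limma adjusted p = 0.160), and -0.28 without that library. It was called higher in BSM under upper quartile scaling, quantile normalization and the same sum. Of the longest Rab2b transcript 76.4% is shared with other annotated genes, with Gm43766 and Tox4 on the other strand of the same locus, and Tox4 was at 4.58 to 5.46 FPKM in BMDM and 4.77 to 6.31 in BSM.

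Of the Rabs of the early endosome and phagosome, 3 of 9 were tested and all 3 were called higher in BMDM, against 45.3% of all tested genes. Only Rab5c was called under the other scalings. Rab5c, which drives fusion of early endosomes, lies at chr11:100576323-100599529 in mm9. It was at 15.0, 22.7 and 15.5 FPKM in BMDM and at 4.01, 3.71 and 3.09 in BSM. No library crossed between the groups, and the BMDM mean was 4.92-fold that of BSM. In the fit the difference was 2.00 on the log2 scale (SE 0.25, limma adjusted p = 0.000488), which is 1.20 above the median of all tested genes. Its relatives Rab5a and Rab5b were lower, at 0.700 to 1.38 and 1.77 to 2.99 FPKM in BMDM, so Rab5c made up 84.1% ± 5.76 of the summed FPKM of the Rab5 subfamily in BMDM and 75.0% ± 11.9 in BSM. These shares overlapped between the groups (exact permutation p = 0.3).

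Rab21, an early endosomal Rab that carries integrins, was at 29.9, 30.8 and 29.3 FPKM in BMDM and at 22.0, 10.3 and 9.80 in BSM. BSM replicate 1 lay nearest to the BMDM libraries without reaching them. A log2 fold change of 1.14 (SE 0.32, limma adjusted p = 0.0194) was called, and it turned to -0.12 after scaling to the same sum. Rab31, between the trans-Golgi network and endosomes, was at 5.83 ± 0.159 and 3.49 ± 0.664 FPKM. Its call at 0.61 (SE 0.22, limma adjusted p = 0.0484) was lost under most alternatives, and the value turned to -0.08 with upper quartile scaling, -0.08 with quantile normalization and -0.47 with equal FPKM sums. Neither call passed without any single library other than BSM replicate 1, at 0.94 to 1.15 for Rab21 and 0.53 to 0.63 for Rab31. Without BSM replicate 1 both were called, at 1.49 and 0.73. Rab20, which acts in phagosome maturation, was below 1 FPKM in every library, at 0.00877, 0.0567 and 0.0670 in BMDM and at 0.484, 0.626 and 0.462 in BSM, without overlap and untested.

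Among the 8 Rabs of the recycling route in the FPKM table, 3 were tested. Rab11b was called higher in BMDM (against 45.3% of all tested genes), and Rab11a and Rab14 were not called. Rab14, which moves cargo between the Golgi and endosomes and is found on phagosomes, lies at chr2:35035725-35056640 in mm9. It was at 29.1, 29.7 and 31.4 FPKM in BMDM and at 57.4, 39.7 and 43.0 in BSM. All 3 BSM libraries lay above all BMDM libraries, with means 1.55-fold apart. The log2 fold change of -0.60 (SE 0.23, limma adjusted p = 0.0545) just missed the threshold, while it lay 1.41 below the median of all tested genes. It was called higher in BSM under the other 3 scalings and without BSM replicate 1, where it was -0.45. The ALEXA-Seq values of Rab14 overlapped between the groups, at 156, 192 and 187 in BMDM and 264, 184 and 202 in BSM. Their log2 fold change was -0.27 (SE 0.22, limma adjusted p = 0.349), and -0.11 without BSM replicate 1. Neither was called, while Rab14 was called higher in BSM after quantile normalization of the ALEXA-Seq values.

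Rab11a and Rab11b mark the recycling endosome. Rab11b was at 2.77, 4.50 and 3.63 FPKM in BMDM and at 1.35, 0.874 and 0.798 in BSM. It was higher in every BMDM library, at a log2 fold change of 1.20 (SE 0.27, limma adjusted p = 0.00723), which stayed positive and was not called under the other 3 scalings. Rab11a was at 3.16, 5.46 and 4.55 FPKM in BMDM and at 0.175, 3.25 and 4.57 in BSM. Its groups overlapped apart from the very low BSM replicate 1, and its log2 fold change was 0.81 (SE 0.56, limma adjusted p = 0.247) with that library and 0.12 without it. It turned to -0.08 with quantile normalization and -0.09 with equal FPKM sums. Rab4a, the Rab of fast recycling, was measured in the ALEXA-Seq table alone. Its values were 0.810, 1.32 and 5.76 in BMDM and 524, 55.9 and 17.6 in BSM. The BSM values were all higher but spanned a wide range. Its log2 fold change was -4.75 (SE 1.23, limma adjusted p = 0.0186), and the mean in BSM was 75.8-fold that in BMDM with replicate 1 and 14.0-fold without it, where it was called as well at -3.42.

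Of the 11 Rabs of late endosomes and lysosomes 5 were tested. Of these, 4 were called higher in BMDM (against 45.3% of all tested genes) and Rab39 higher in BSM (against 9.22%). Rab7, which governs fusion of late endosomes and phagosomes with lysosomes, lies at chr6:87949100-87995264 in mm9. It was at 79.4, 70.4 and 77.6 FPKM in BMDM and at 6.45, 20.6 and 15.9 in BSM. The groups did not come near each other, the means being 5.29-fold apart with a lower BSM replicate 1. The log2 fold change of 2.46 (SE 0.39, limma adjusted p = 0.00147) was the largest in favour of BMDM among the Rab genes at this pseudocount, 1.65 above the median of all tested genes, and 2.00 without BSM replicate 1. At a pseudocount of 0.1, Rab3d and Rab36 came before it, at 4.30 and 4.03 against 2.55. It was called under all 4 scalings. Of its longest transcript 28.8% is near-identical to other annotated genes, Rab7-ps1 among them, so reads there may have been split.

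Rab9, which returns mannose 6-phosphate receptors from late endosomes to the Golgi, was at 10.6 ± 2.12 FPKM in BMDM and 4.18 ± 0.701 in BSM. Its log2 fold change was 1.16 (SE 0.24, limma adjusted p = 0.00551), only 0.35 above the median of all tested genes, and it was called under no other scaling. Of the Rab9 transcript 41.9% has a near-identical stretch in another annotated gene. Rab32, of lysosome-related organelles, was at 5.05, 5.55 and 5.89 FPKM in BMDM and at 0.568, 1.61 and 1.41 in BSM. Its BMDM libraries were all higher, by a log2 fold change of 1.60 (SE 0.27, limma adjusted p = 0.00215) that was called under quantile normalization but not after scaling to the same sum.

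Rab36 was at 3.66, 1.30 and 1.20 FPKM in BMDM and at 0, 0.0172 and 0.0342 in BSM. BMDM replicate 1 alone exceeded the minimum, and the log2 fold change was 1.50 (SE 0.39, limma adjusted p = 0.0132), not called under quantile normalization. In the ALEXA-Seq table the same libraries gave 8.20, 12.1 and 9.16 in BMDM and 0, 0.114 and 0.250 in BSM, where BMDM replicate 1 was not the highest. Rab39, of late endosomes and phagosomes, lies at chr9:53492215-53514337 in mm9. It was at 0.960, 0.349 and 1.06 FPKM in BMDM and at 2.57, 2.73 and 3.41 in BSM. The BSM libraries were all higher, with a mean 3.67-fold that of BMDM, and BSM replicate 3 alone passed the minimum. On the log2 scale the fold change was -1.14 (SE 0.29, limma adjusted p = 0.0115), called under all 4 scalings but not without BSM replicate 3, where it was -1.05. Rab38, a relative of Rab32, was listed at 0 in all BSM libraries and at 0.0599, 0.414 and 0.608 FPKM in BMDM.

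Of the 13 Rabs of exocytosis and secretory granules 5 were tested, and 4 were called higher in BMDM, against 45.3% of all tested genes. Rab8a, which carries cargo to the plasma membrane, lies at chr8:74685099-74707803 in mm9. It was at 15.2, 24.8 and 18.0 FPKM in BMDM and at 3.28, 3.62 and 3.32 in BSM. The groups were well separated, by 5.67-fold between the means. Its log2 fold change was 2.18 (SE 0.25, limma adjusted p = 0.000306), 1.37 above the median of all tested genes and called under all 4 scalings. Its relative Rab8b had the highest mean FPKM of the Rab genes in both cell types, although Rab14 was above it in BSM replicate 1. Rab8b was at 102, 107 and 107 FPKM in BMDM and at 47.9, 98.0 and 84.7 in BSM. Rab8b gave a log2 fold change of 0.51 (SE 0.29, limma adjusted p = 0.172), which turned to -0.34 with upper quartile scaling, -0.19 with quantile normalization and -0.80 with equal FPKM sums.

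Rab10, of exocytic and endosomal recycling traffic, was at 48.0, 59.98 and 51.3 FPKM in BMDM and at 3.50, 23.8 and 28.7 in BSM. BSM replicate 1 was far below the other BSM libraries. The log2 fold change was 1.85 (SE 0.66, limma adjusted p = 0.0432) and 0.99 without that library, where it was still called, while it was not called under the other 3 scalings or without any single BMDM library, at 1.77 to 1.92. Rab27a, which docks secretory lysosomes and granules at the plasma membrane, was at 7.86, 9.41 and 10.8 FPKM in BMDM and at 3.08, 2.03 and 1.53 in BSM. It was higher in every BMDM library, at a log2 fold change of 1.71 (SE 0.27, limma adjusted p = 0.00138), and not called after scaling to the same sum.

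Rab3d, of secretory granules outside neurons, lies at chr9:21711935-21722636 in mm9. It was at 1.47, 4.36 and 1.68 FPKM in BMDM and at 0, 0.0584 and 0.00270 in BSM. BMDM replicate 2 was the highest and alone passed the minimum. Rab3d had a log2 fold change of 1.69 (SE 0.38, limma adjusted p = 0.00753), called under all 4 scalings. Rab44, a large Rab of granulated blood cells, was listed at 0 in every BSM library and at 0.658, 0.926 and 1.02 FPKM in BMDM. The summed granulocyte markers differed between the groups in the same direction as these genes and were highest in the same BMDM library as Rab3d, and their part in these results was not tested.

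Of the 34 Rab genes under the minimum, Rab15, Rab17 and Rab9b were listed at 0 in every library, 18 were above 0 but below 1 FPKM throughout, and 13 reached 1. When the minimum was lowered to 1, 5 of those 13 were called higher in BMDM, against 37.2% of all 9637 genes then tested, and the other members were not called. They were Rab1b, Rab5b, Rab7l1, Rab44 and Rab28, with log2 fold changes of 0.72 to 0.90. Rab34, known from cilia formation and lysosome positioning, was at 0, 0 and 0.00947 FPKM in BMDM and at 0.308, 0.195 and 0.0888 in BSM. Its ALEXA-Seq values overlapped between the groups, at 3.51, 8.11 and 4.66 in BMDM and 18.7, 9.95 and 6.93 in BSM. Rab33b, a Golgi Rab of autophagy, reached 1.24 to 1.85 FPKM in BMDM and 1.84 to 2.70 in BSM, and Rab12 2.12 ± 0.482 and 2.04 ± 0.0343. None of the 4 Rabs of cilia and other routes was tested, Rab23 and Rab28 reaching at most 1.85 and 1.65 FPKM.

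The make-up of the family within a library does not depend on scaling between libraries. Rab8b took 19.8% ± 0.534 of the summed Rab FPKM in BMDM and 27.2% ± 6.31 in BSM, with overlap. Rab7 took 15.5%, 12.7% and 14.8% in the BMDM libraries and 2.71%, 6.77% and 5.52% in the BSM libraries. Rab14 took 5.69%, 5.35% and 5.99% against 24.1%, 13.02% and 14.9%. For both genes the libraries of the groups did not overlap (exact two-sided permutation p = 0.1, the smallest that 3 against 3 allows), and without BSM replicate 1 the BSM means were 6.14% and 14.0%. Rab1 at 14.3% ± 2.21 and 10.7% ± 3.05 and Rab10 at 10.0% ± 0.733 and 6.41% ± 4.41 overlapped between the groups.

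**Figure D3:**
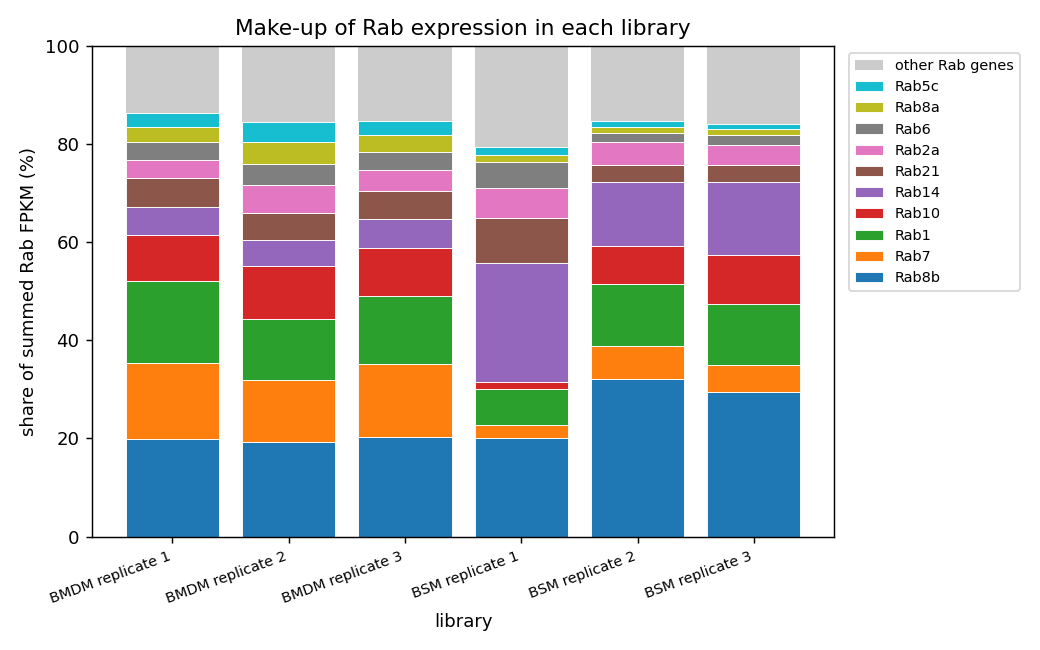
Share of each of 10 Rab genes in the summed FPKM of all Rab genes, in percent, for each library, with the remaining Rab genes in grey. Rab7 (orange) takes 12.7% to 15.5% in BMDM and 2.71% to 6.77% in BSM, and Rab14 (purple) 5.35% to 5.99% and 13.02% to 24.1%.

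Within subfamilies the choice of relative differed between the cell types in some cases. Rab6b made up 0.469%, 0.0895% and 0.148% of Rab6 subfamily FPKM in BMDM and 32.3%, 45.9% and 41.2% in BSM. Rab2b made up 12.8% ± 3.95 of the Rab2 pair in BMDM and 33.9% ± 15.7 in BSM, or 24.8% without BSM replicate 1. Rab8a was the lesser relative of Rab8b throughout, at 15.4% ± 3.02 and 4.58% ± 1.59. Rab3d made up 80.9% ± 9.78 of the Rab3 subfamily in BMDM and 4.75% ± 7.48 in BSM, where all Rab3 genes were below 1 FPKM. None of these 4 shares overlapped between the groups (exact two-sided permutation p = 0.1 each, the smallest possible, and so unable to pass 0.05). The same held for Rab1b in the Rab1 pair, at 1.15% ± 0.633 in BMDM and 0.361% ± 0.0935 in BSM. It also held for Rab38 in the Rab32 subfamily, at 4.88% ± 3.64 in BMDM and 0 in BSM. In their subfamilies the shares of Rab5c, Rab32, Rab39 and Rab27a overlapped. The Rab22 subfamily showed no such difference, Rab31 being at 74.0% ± 1.83 in BMDM and 74.5% ± 0.845 in BSM (exact permutation p = 0.7). Rab11a was at 54.6% ± 1.20 of its subfamily in BMDM and at 11.4%, 78.8% and 84.4% in the BSM libraries, replicate 1 lying below and the others above all BMDM libraries.

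**Figure D4:**
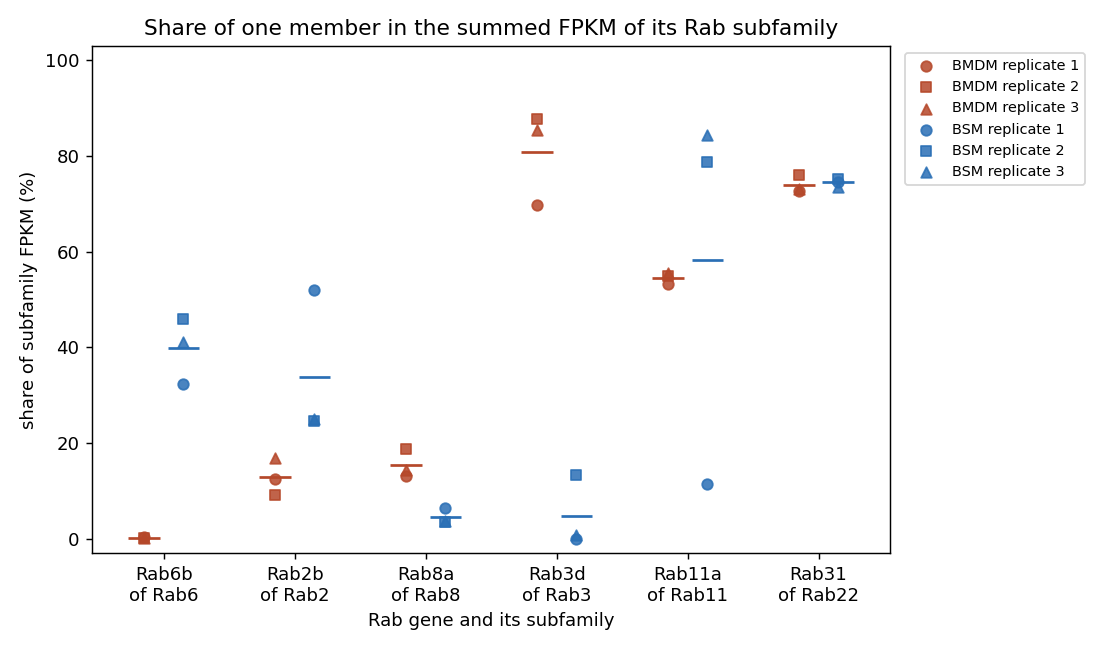
Share of 1 member in the summed FPKM of its Rab subfamily, in percent, in each BMDM (red) and BSM (blue) library, with group means as ticks. The groups are apart for Rab6b, Rab2b, Rab8a and Rab3d, coincide for Rab31 near 74.0% and 74.5%, and for Rab11a the BSM libraries spread from 11.4% to 84.4%.

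The ALEXA-Seq values are a second quantification of the same libraries and not further samples, and their unit is not named in the sources used here. Of 26 Rab genes in that test, 13 were called higher in BMDM (50.0% of them, against 37.1% of all tested genes) and 4 higher in BSM (15.4% against 10.9%), these being Rab6b, Rab39, Rab2b and Rab4a. Without BSM replicate 1, 19 and 4 were called, against 48.4% and 14.2% of all tested genes, while without BMDM replicate 1, 2 or 3 the counts higher in BMDM were 8, 8 and 7, against 28.6%, 25.1% and 22.8%, and those in favour of BSM 2, 2 and 4, against 8.67%, 9.32% and 8.16%. All 22 Rab genes tested in both tables had the same sign, and 13 were called in the same direction in both. The matching shares over all genes were not computed, so these counts do not set the Rab genes apart. The median of all tested genes was also above 0 in both, at 0.81 by FPKM and 0.84 by ALEXA-Seq. Rab3d and Rab6b differed most from 0 there, at 4.80 (SE 0.59) and -5.84 (SE 0.46) on the log2(value + 1) scale, on which a low FPKM is compressed more than a low ALEXA-Seq value. Rab2b, not called by FPKM, was called at -2.21 (limma adjusted p = 0.0191), its values being 23.9, 18.5 and 38.9 in BMDM and 284, 91.9 and 70.7 in BSM without overlap. Rab1, Rab2a, Rab18, Rab31 and Rab10 were called by FPKM and not by ALEXA-Seq, and Rab8b, like Rab2b, by ALEXA-Seq alone.

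**Figure D5:**
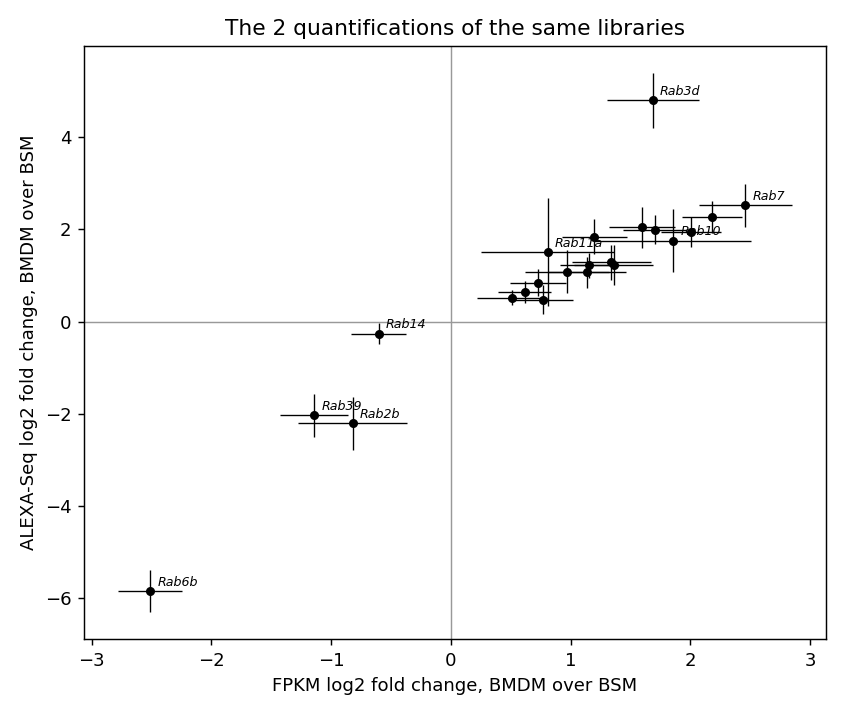
Log2 fold change, BMDM over BSM, of the 22 Rab genes tested in both tables, by FPKM (horizontal) and by ALEXA-Seq (vertical), with standard errors as bars. All points lie in the quadrants of equal sign, and Rab3d and Rab6b reach 4.80 and -5.84 by ALEXA-Seq against 1.69 and -2.51 by FPKM.

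Proteins that load, switch off and read Rabs were taken from 4 lists made by role, 138 genes in all, of which 137 had an FPKM row and 63 were tested. Of these, 22 were called higher in BMDM (34.9%, against 45.3% of all tested genes), 10 higher in BSM (15.9% against 9.22%) and 31 not called, with a median log2 fold change of 0.40 against 0.81 over all tested genes. Under quantile normalization 3 were called for BMDM (4.76% against 21.7%) and 18 for BSM (28.6% against 19.3%). The larger count thus changed sides with the scaling. Relative to all tested genes, the share called for BMDM was lower and that for BSM higher in both settings. The count called ranged from 17 to 37 when 1 library was left out, against 2498 to 3932 of all 6364 tested genes. For prenylation and recycling, 3 of 6 tested genes were called, all 3 higher in BMDM (50.0%, against 45.3% of all tested genes), at a median log2 fold change of 0.64. Chml, a Rab escort protein, was at 3.11, 2.80 and 3.36 FPKM in BMDM and 0.321, 0.686 and 1.02 in BSM, at a log2 fold change of 1.31 (limma adjusted p = 0.00552).

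Of the exchange factors, 3 of 17 tested genes were called higher in BMDM (17.6%, against 45.3% of all tested genes), 5 were called in favour of BSM (29.4% against 9.22%) and 9 were not called, with a median log2 fold change of 0.24. Sbf2, a DENN-domain exchange factor, was at 0.511, 0.278 and 0.687 FPKM in BMDM and 5.25, 6.28 and 6.54 in BSM, at a log2 fold change of -2.24 (limma adjusted p = 0.000257). Rab3il1, an exchange factor for Rab8, was at 0.0657, 0.0847 and 0.0212 FPKM and 2.21, 4.98 and 5.01, at -2.20 (limma adjusted p = 0.00125). Both were higher in every BSM library, under every scaling. Madd, which loads Rab3 and Rab27, was at 9.43 ± 3.08 FPKM in BMDM and 2.32 ± 1.26 in BSM, and Rin3, which loads Rab5-type GTPases, at 27.6 ± 6.37 and 10.5 ± 2.63. Their log2 fold changes of 1.69 (limma adjusted p = 0.00711) and 1.32 (limma adjusted p = 0.00576) stayed positive and were not called under the other 3 scalings, and the same was true of Chml.

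Of the GTPase-activating proteins, 9 of 15 tested genes were called higher in BMDM (against 45.3% of all tested genes), Tbc1d14 was called in favour of BSM and 5 were not called, with a median log2 fold change of 0.98. Rabgap1l was at 13.3, 11.8 and 14.0 FPKM in BMDM and at 0.0144, 1.66 and 2.74 in BSM, at a log2 fold change of 2.70 (limma adjusted p = 0.00201) that was called under all 4 scalings and was 2.15 without BSM replicate 1. Tbc1d13, a GTPase-activating protein for Rab35, was at 3.15, 14.7 and 3.91 FPKM in BMDM, where replicate 2 was the highest, and at 1.19, 1.73 and 1.35 in BSM. The granulocyte markers and the erythroid Hba-a1, at 21.6 FPKM against 3.80 and 3.08, were highest in the same BMDM library, and their part was not tested. Its log2 fold change of 1.50 (limma adjusted p = 0.0314) was called under no other scaling and was 0.90 without BMDM replicate 2; without BMDM replicate 3, BSM replicate 1 or BSM replicate 3 it was not called, at 1.74, 1.43 and 1.48.

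Of the effectors, 7 of 25 tested genes were called higher in BMDM (28.0%, against 45.3% of all tested genes), 4 were called in favour of BSM (16.0% against 9.22%) and 14 were not called, with a median log2 fold change of 0.43. Myo5a, the motor that carries Rab27a-bearing organelles, was at 21.2, 16.2 and 25.5 FPKM in BMDM and 2.68, 1.84 and 2.02 in BSM, at a log2 fold change of 2.78 (limma adjusted p = 0.000106). Eea1, the tether that Rab5 recruits, was at 10.7 ± 2.55 and 4.59 ± 1.10 FPKM, and its log2 fold change of 1.07 (limma adjusted p = 0.0132) turned to -0.08 after scaling to the same sum. Eea1 was not called without BMDM replicate 1 or 3, at 0.93 and 1.03. Rabepk, an effector of Rab9, was at 1.90, 1.78 and 1.10 FPKM in BMDM and 9.09, 12.3 and 12.7 in BSM, at -2.25 (limma adjusted p = 0.000275). Rilpl1, a relative of the Rab7 effector RILP, was at 0.188, 0.365 and 0.415 FPKM and 3.52, 4.23 and 3.34, at -1.83 (limma adjusted p = 0.000886). Both were higher in every BSM library and called under all 4 scalings, as Myo5a was in the other direction.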

How the data were processed

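Total RNA of sorted, pooled cells was amplified with the Ovation RNA-Seq method and sequenced as paired ends on an Illumina HiSeq. Per the labels and the submitters' processing notes, CASAVA 1.7.0, TopHat 1.3.1, Bowtie 0.12.7, Cufflinks 1.0.3 and build mm9 were used. The authors deposited 1 table of FPKM per gene and library from Cufflinks and 1 table of ALEXA-Seq signal, whose normalization is not given in the sources used here. Neither holds counts per gene, so the counting error behind a value is unknown; the read totals the study lists per library were not used here.

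Groups of 3 libraries followed the labels. Log2(FPKM + 1) was compared for the 6364 genes that reached an FPKM of 3 in any library, with limma 3.58.1 (trend, R 4.3.3), with Benjamini-Hochberg adjustment over all of them and a threshold of 0.05; fold changes on this scale understate those of low genes. For ALEXA-Seq, the same number of genes with the highest values were fitted. Shares of subfamilies were compared by exact two-sided permutation tests. Near-identical stretches (at least 100 bases at 95% identity) were found with blastn 2.17.0 in GENCODE transcripts of GRCm38, used for gene properties only. Alternatives were other pseudocounts (0.1), minimums (1 or none), scalings, a fit without trend, only the libraries listed as female, a replicate block and leaving out each library. The Rab genes, the lists of machinery and the markers were chosen with earlier results of these data known. Rab genes past the minimum are named with values; of each machinery list, the 2 genes per direction with the largest change among those called in both tables without overlap are named. Promoters were shown for the called Rab genes with the largest log2 fold change in each direction, at a pseudocount of 1, and the closest relative, in place of the planned protein sequences.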

Additional observations from a re-analysis of the deposited data

How the results depend on the processing

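The scaling between the cell types changed directions and calls. Under upper quartile scaling, quantile normalization and the same sum of FPKM, 11, 10 and 9 Rab genes were called by FPKM, of which 7, 6 and 5 were higher in BMDM and 4, 4 and 4 in BSM. The shares of all tested genes were 21.7%, 21.7% and 15.2% in BMDM and 16.5%, 19.3% and 24.9% in BSM. Rab7, Rab8a, Rab5c and Rab3d in BMDM and Rab6b and Rab39 in BSM were called under all 4 scalings. Among them, Rab3d, Rab6b and Rab39 passed the minimum only through the group where they were higher. For Rab3d this was BMDM replicate 2 alone, and for Rab39 BSM replicate 3 alone. The machinery genes gave 20 calls under upper quartile scaling and 21 under quantile normalization, with 3, 3 and 2 for BMDM and 17, 18 and 23 for BSM under the 3 scalings. Values that turned below 0 were those of Rab2a (-0.0375 under upper quartile scaling, -0.48 with the same sum), Rab18 (-0.085 with the same sum), Rab43 (-0.013 under quantile normalization, -0.27 with the same sum), Rab21 (-0.12 with the same sum), Rab31 (-0.083, -0.075 and -0.47 under the 3 scalings), Rab11a (-0.078 under quantile normalization, -0.087 with the same sum), Rab8b (-0.34, -0.19 and -0.80 under the 3 scalings) and Eea1 (-0.076 with the same sum). By ALEXA-Seq values, 4 Rab genes were higher in BSM and 12 machinery genes in BMDM, against 10.9% and 37.1% of all tested genes. The share of Rab6b in its subfamily differed by -50.8 percentage points there. Quantile normalization of the ALEXA-Seq values left 7 Rab genes higher in BMDM (26.9%, against 22.6% of all tested genes) and 6 in BSM (23.1% against 21.2%). Both lie near the background. When 1 library was left out, 13 to 20 Rab genes were called by FPKM, with 11 to 17 in BMDM and 1 to 3 in BSM. By ALEXA-Seq there were 10 to 23, with 7 to 19 and 2 to 4. For the machinery genes by FPKM there were 17 to 37, with 9 to 22 and 7 to 15. The highest of these totals came without BSM replicate 1, and the lowest machinery total without BMDM replicate 3. The shares of all tested genes moved in the same fits. By FPKM they ran from 32.0% to 50.2% in BMDM and 7.24% to 11.6% in BSM. By ALEXA-Seq they ran from 22.8% to 48.4% and from 8.16% to 14.2%. Apart from the scalings, the direction of the 23 Rab genes was kept under every alternative run. Fits with a library left out hold fewer samples, and the cause of these changes was not tested.

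The replicate numbers are shared between the groups, and number 1 is listed as male and numbers 2 and 3 as female in both. Nothing in the labels ties same-numbered pools to shared animals or days. Deviations of same-numbered libraries from their group means correlated at -0.02, -0.01 and 0.13, and not every library correlated best with its own number. With a replicate block, 18 Rab genes were called by FPKM, with Rab31 no longer called, against 3471 of all genes. Of the 18, 16 were higher in BMDM (69.6% of tested Rab genes, against 45.6% of all tested genes) and 2 in BSM (8.7% against 8.89%). By ALEXA-Seq the block gave 13 calls in place of 17. There, 9 in place of 13 were higher in BMDM (34.6%, against 35.4% of all tested genes) and 4 in BSM (15.4% against 9.96%). The counting error of low members is unknown, and 34 of 57 Rab genes stayed under the minimum.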
